A study of Mus musculus with 2 samples.

Results

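Chromatin over 9 complement genes was examined in single nuclei of mouse liver. The genes were C1qa, C1qb, C1qc, Vsig4, C6, C9, Cfp, C3ar1 and C5ar1, which are 9 of the 21887 protein-coding genes counted. They were chosen by name as genes of complement and its receptors, and C1qa, C1qb and C1qc, which are neighbours on chromosome 4, were counted as 1 locus, which leaves 7 loci. The assay was single-nucleus ATAC-seq in droplets: a transposase cuts accessible DNA, and each sequenced fragment marks an open stretch. Nuclei came from non-parenchymal liver cells enriched with magnetic beads against F4/80, a surface protein of macrophages, from an untreated male Spta sph/sph mouse and its male Spta wt/wt littermate, both 8 to 10 weeks old. The title of the study concerns red blood cell uptake and the inflammatory programme of macrophages in the liver. There was 1 library per genotype. Both libraries are in 1 deposited file, as barcodes with the suffix 1 or 2, and no source used here says which suffix is which genotype. For this reason the results speak of library 1 and library 2, the genotypes are not compared, and no test across samples was possible.

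Complement is a cascade of plasma proteins that tags particles for uptake and can form a pore in membranes. C1q, built from the products of C1qa, C1qb and C1qc, starts the classical pathway on antibody-coated targets and binds dying cells, and in most tissues macrophages make it, whereas hepatocytes make most other complement proteins. Vsig4 is a receptor of Kupffer cells, the resident macrophages of the liver, for fragments of C3. Cfp encodes properdin, which stabilizes the enzyme complex of the alternative pathway, C6 and C9 are parts of the membrane attack complex, and C3ar1 and C5ar1 are receptors for the small fragments C3a and C5a.

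The stretches of DNA at gene starts of the C1q locus, and at 3 other starts, were read from the promoter table of RefSeq GRCm38.p6 (250 bases before and 50 after the gene start, 5′ to 3′ on the strand of the gene), which matched 8 of the 9 genes, all but C1qa. They are chr4:136886151-136886450 for C1qb, chr4:136892865-136893164 for C1qc, chrX:96293389-96293688 for Vsig4 and chr7:16259289-16259588 for C5ar1, all on the minus strand, and chr15:4726960-4727259 for C6 on the plus strand. C1qb and C1qc are the starts of the C1q locus in the table, C6 is shown as an open start at which the libraries had similar values, and Vsig4 and C5ar1 as starts at which library 1 was higher. Capitals mark GAGGAA (the core bound by the macrophage factor PU.1) and TGCTGA (part of the site of Maf factors) on either strand.
C1qb: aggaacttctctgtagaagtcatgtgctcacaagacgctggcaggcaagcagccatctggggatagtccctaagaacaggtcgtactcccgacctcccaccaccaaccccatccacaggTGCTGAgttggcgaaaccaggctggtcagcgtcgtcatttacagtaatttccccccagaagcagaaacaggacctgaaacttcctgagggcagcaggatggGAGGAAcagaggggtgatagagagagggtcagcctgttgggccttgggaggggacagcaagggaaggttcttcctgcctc
C1qc: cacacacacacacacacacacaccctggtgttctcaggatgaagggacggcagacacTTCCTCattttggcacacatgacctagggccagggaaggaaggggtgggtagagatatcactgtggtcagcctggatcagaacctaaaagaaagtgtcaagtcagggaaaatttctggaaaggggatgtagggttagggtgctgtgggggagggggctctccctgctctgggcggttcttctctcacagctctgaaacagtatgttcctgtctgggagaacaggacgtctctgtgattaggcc
Vsig4: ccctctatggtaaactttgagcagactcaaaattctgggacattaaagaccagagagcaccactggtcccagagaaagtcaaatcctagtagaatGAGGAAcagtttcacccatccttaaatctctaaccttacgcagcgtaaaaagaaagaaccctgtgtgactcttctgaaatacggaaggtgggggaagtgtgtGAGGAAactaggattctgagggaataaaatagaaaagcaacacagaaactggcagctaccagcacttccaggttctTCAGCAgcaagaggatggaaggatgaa
C6: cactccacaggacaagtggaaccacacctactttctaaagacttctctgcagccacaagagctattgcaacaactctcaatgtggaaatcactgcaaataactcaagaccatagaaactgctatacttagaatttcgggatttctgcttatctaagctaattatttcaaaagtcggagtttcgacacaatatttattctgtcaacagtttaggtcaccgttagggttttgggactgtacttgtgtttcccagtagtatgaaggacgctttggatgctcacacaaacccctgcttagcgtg
C5ar1: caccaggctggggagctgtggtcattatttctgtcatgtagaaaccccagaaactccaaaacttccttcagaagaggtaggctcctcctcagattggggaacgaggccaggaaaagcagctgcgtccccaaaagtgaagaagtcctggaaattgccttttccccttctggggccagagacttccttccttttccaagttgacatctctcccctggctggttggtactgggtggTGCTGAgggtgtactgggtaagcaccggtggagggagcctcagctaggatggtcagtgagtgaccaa
Over these 300 bases C1qb had 242 fragments in Kupffer-like and 7 in endothelial-like cells of library 1, and 151 against 9 in library 2. C1qc had 161 against 6 in library 1 and 92 against 2 in library 2, Vsig4 had 52 against 6 and 15 against 0, C6 had 80 against 0 and 42 against 1, and C5ar1 had 54 against 2 and 8 against 3. GAGGAA was found in C1qb at base -30, in C1qc at -193 on the opposite strand, in Vsig4 at -155 and -53, and in Cfp at 7 and 23 on the opposite strand, where bases are counted from the gene start. TGCTGA was found in C1qb at -131, in C5ar1 at -17, and on the opposite strand in Vsig4 at 24 and in C3ar1 at -144. TGANTCA, the AP-1 site, was found in C3ar1 at -22, while CACGTG (E-box) and TTGCGCAA (C/EBP) were found in none, and no match lay in C6 or C9. Of the 27025 promoters in the table, 28.3% held GAGGAA, 19.1% TGCTGA, 7.93% TGANTCA, 7.24% CACGTG and 0.185% TTGCGCAA. A match is a description of these letters and not a binding site.

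Library 1 held 11401694 fragments and library 2 held 21656110, of which 83.2% and 56.2% lay in the 637 and 575 barcodes that the authors called as cells. No called barcode was shared between the libraries. After a quality filter 609 and 562 cells remained, and they were clustered without the member genes and the 50 kb around them. Kupffer-like cells numbered 294 in library 1 and 195 in library 2, and endothelial-like cells 100 and 112. These were the only named classes with at least 100 cells in each library. Of the Kupffer-like cells, cluster 1 held 292 in library 1 and cluster 3 held 192 in library 2, so the libraries separated within the class. The Kupffer list scored 1.48 in cluster 1 and 0.35 in cluster 3 (mean log2 ratio of its markers over all other cells). These other cells include the other Kupffer-like cluster. Of its 10 markers, 10 counted as higher and detected in cluster 1 and 7 in cluster 3, so the name is weaker in library 2. The 10 Kupffer markers (such as Clec4f, Timd4 and Cd5l) summed to 796 and 524 CPM (counts of fragments per 1e6 fragments of the class) in Kupffer-like cells of libraries 1 and 2, and to 120 and 125 CPM in endothelial-like cells, with no marker at 0. In sum the markers were thus lower in Kupffer-like cells of library 2 than of library 1. The libraries also differed in quality: the median share of a Kupffer-like cell's fragments inside peaks was 74.1% in library 1 and 58.9% in library 2, and local pile-ups of single cells held 0.648% and 12.0% of all fragments. These differences go with every ratio between the libraries, and their part in the ratios was not tested. All intervals given are at the 95% level and include only counting error.

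The C1q locus was the most accessible of the 7 loci in Kupffer-like cells, both in CPM and per length. Its window (chr4:136878126-136900844, GRCm38, the 3 genes with 2 kb on each side) had 1302 fragments in Kupffer-like and 39 in endothelial-like cells of library 1, which is 235 CPM (223 to 248) against 26.6 CPM (18.9 to 36.4). In library 2 it had 543 and 35 fragments, which is 149 CPM (137 to 162) against 18.8 CPM (13.1 to 26.2). Kupffer-like cells were thus higher in both libraries, with intervals that did not overlap. The log2 ratio relative to the median gene, with 0.5 added to each count, was 3.13 (2.69 to 3.65) in library 1 and 2.96 (2.48 to 3.52) in library 2. Per kb of window, the C1q locus had 10.4 CPM in library 1 and 6.56 CPM in library 2, followed by C5ar1 (4.85 CPM per kb), C3ar1 (4.23) and Cfp (4.1) in library 1 and by Cfp (3.34), C3ar1 (2.8) and C5ar1 (2.14) in library 2. Vsig4 (1.62 and 0.781 CPM per kb in libraries 1 and 2), C6 (1.45 and 0.915) and C9 (0.324 and 0.0763) lie in windows of 50.2, 81.0 and 57.5 kb, much of which held few fragments.

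**Figure D1:**
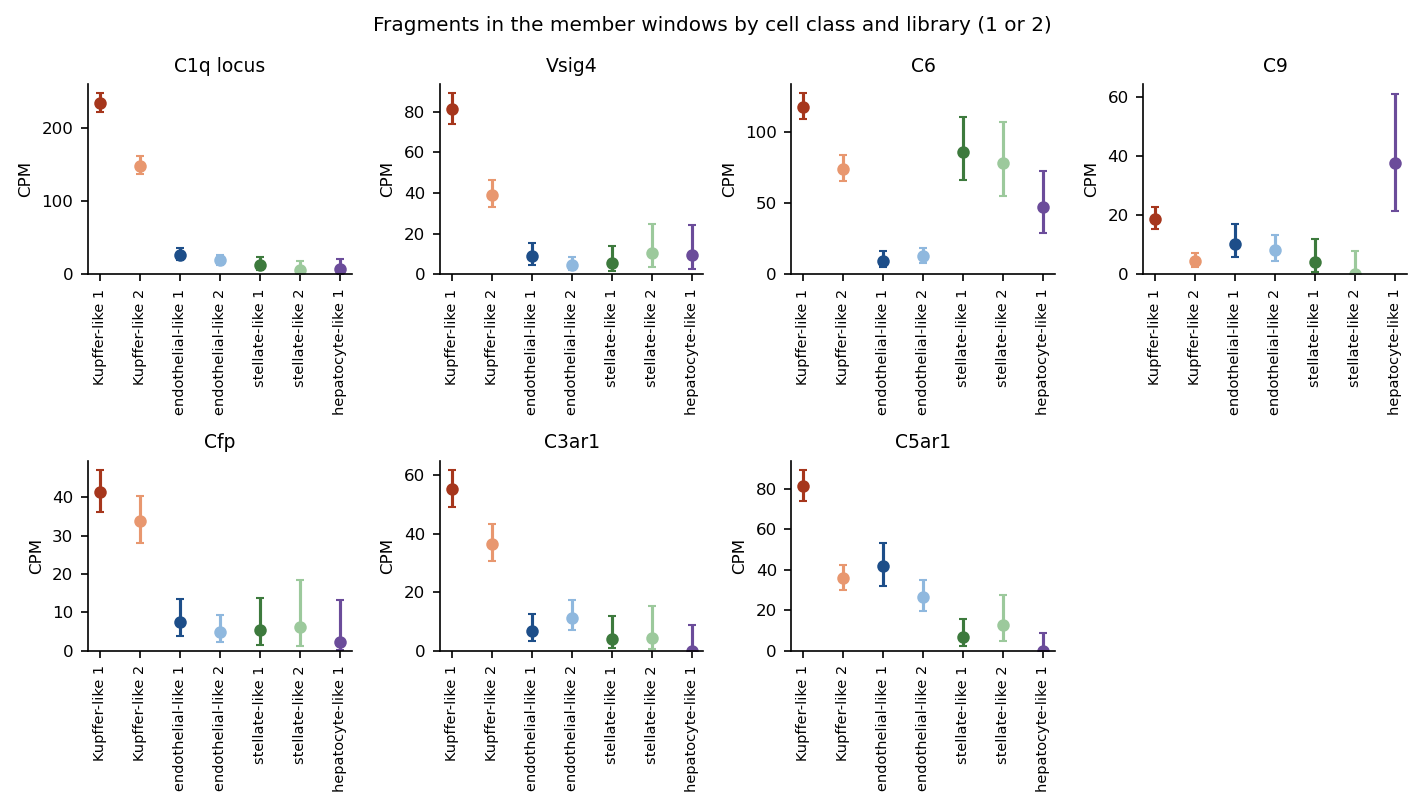
Fragments in the window of each locus (CPM) in Kupffer-like, endothelial-like, stellate or fibroblast-like and, for library 1, hepatocyte-like cells. Points are sums over the cells of 1 library (1 or 2), bars are exact 95% Poisson intervals for counting error. The C1q locus had 235 and 149 CPM in Kupffer-like cells, C6 was also open in stellate or fibroblast-like cells (85.8 and 77.7 CPM), and C9 was highest in the 24 hepatocyte-like cells (37.6 CPM).

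In the other named classes the C1q locus was near its endothelial level. Stellate or fibroblast-like cells (60 and 23 cells) had 12.1 CPM (5.52 to 22.9) and 6.3 CPM (1.3 to 18.4) in libraries 1 and 2, the 24 hepatocyte-like cells of library 1 had 7.06 CPM (1.46 to 20.6), and the 23 erythroid-like cells of library 2 had 24.0 CPM (10.4 to 47.3). These intervals overlap, so no order among the named classes other than Kupffer-like is given. The erythroid-like cluster scored 1.34 for erythroid and 1.03 for B cell markers, so its name is less certain. Cluster 2, a cluster of shallow cells left without a name, had 133 CPM (102 to 171) among its library 1 cells and 64.1 CPM (50.9 to 79.8) among those of library 2. Cluster 5, which carried dendritic and monocyte markers at similar scores and stayed unnamed, had 53.5 CPM (37.5 to 74.1) and 17.1 CPM (11.3 to 24.7). Cluster 10, also unnamed, had 43.7 CPM (36.4 to 52.0) from its 23 cells of library 2, above the endothelial-like interval of that library. The median share of fragments in peaks in this cluster was 22.7%. Barcodes that were not called as cells had 90.9 CPM in library 1 and 29.2 CPM in library 2. Part of the endothelial signal came from few cells. Of the 39 fragments in endothelial-like cells of library 1, 26 lay in the 13 cells marked as doublets, and of the 35 in library 2, 18 lay in 19 such cells. Without marked cells the endothelial-like level was 12.3 CPM in library 1 and 14.2 CPM in library 2, against 248 and 149 CPM in Kupffer-like cells.

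Cell by cell, 95.2% of Kupffer-like cells in library 1 (280 of 294; 92.1 to 97.4%) and 76.9% in library 2 (150 of 195; 70.4 to 82.6%) had a fragment at the C1q locus, with medians of 4 and 2 fragments per cell. In endothelial-like cells the shares were 18.0% (18 of 100; 11 to 26.9%) and 18.8% (21 of 112; 12.0 to 27.2%), which serve as the background, since endothelial cells are not known as a main source of C1q. Median depth was 17055.5 and 15030.0 fragments per Kupffer-like cell and 12300.5 and 12736.0 per endothelial-like cell in libraries 1 and 2. Kupffer-like cells were thus deeper in both libraries. Thinned to 5000 fragments per cell, which left out 9 and 5 Kupffer-like and 6 and 6 endothelial-like cells, 73.3% (67.8 to 78.4%) and 49.5% (42.2 to 56.8%) of Kupffer-like cells had a C1q fragment, against 7.45% (3.05 to 14.7%) and 8.49% (3.96 to 15.5%) of endothelial-like cells. The intervals of Kupffer-like cells in libraries 1 and 2 did not overlap before or after thinning. They cover only the sampling of cells within 1 library each, so this is no test of a difference between the groups. Thinning evens out depth but not the share of fragments in peaks or in pile-ups, whose part was not tested.

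**Figure D2:**
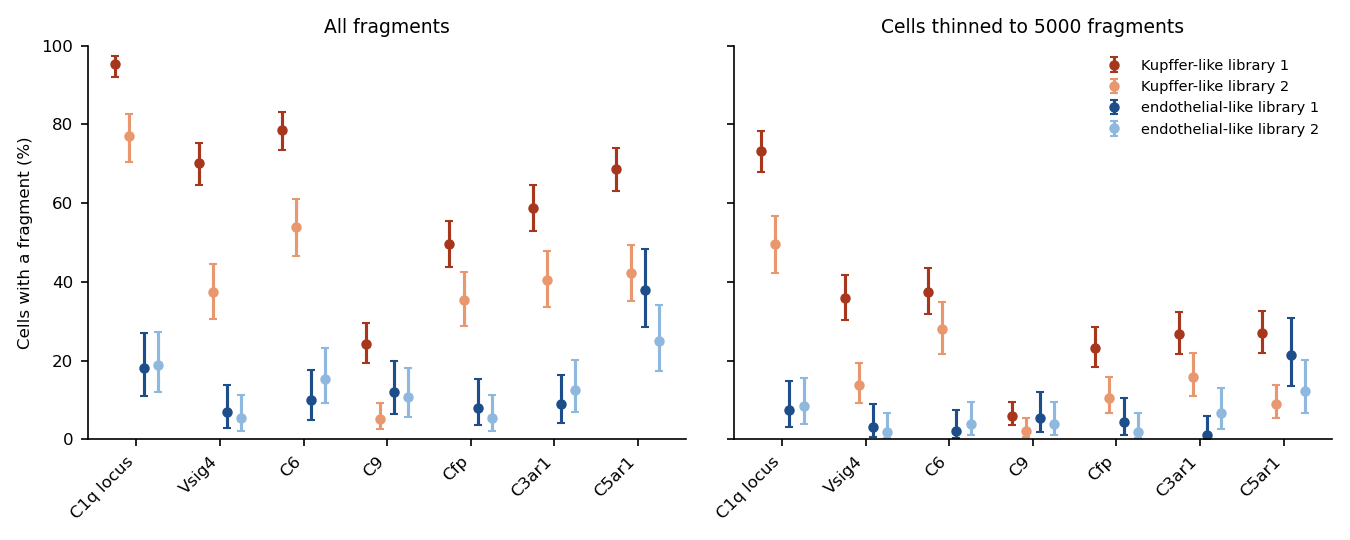
Share of cells with at least 1 fragment in the window of each locus (%), with all fragments (left) and after thinning every cell to 5000 fragments (right). Points are Kupffer-like and endothelial-like cells of libraries 1 and 2, bars are exact 95% Clopper-Pearson intervals. For the C1q locus the thinned shares were 73.3% and 49.5% of Kupffer-like cells against 7.45% and 8.49% of endothelial-like cells.

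Accessibility within the C1q locus was gathered in a few 1 kb tiles. The fullest tile held the start of C1qb (chr4:136886001-136887000), with 315 fragments in Kupffer-like and 10 in endothelial-like cells of library 1 (56.9 against 6.83 CPM) and 177 and 10 in library 2 (48.5 against 5.38 CPM). In library 1 the next was the tile with the end of C1qa that had more fragments (chr4:136898001-136899000). The tables used here give no strand for C1qa, so this end may be its start. It had 181 and 12 fragments in library 1 (32.7 against 8.19 CPM) and 62 and 13 in library 2 (17.0 against 7.0 CPM). The pair of tiles at the start of C1qc (chr4:136892001-136893000 and the 1 kb after it) had 129 and 148 fragments in Kupffer-like cells of library 1 and 68 and 82 in library 2, against 6 and 1 in endothelial-like cells of library 1 and 0 and 2 in library 2. In library 2 each tile of this pair held more Kupffer-like fragments than the C1qa tile. Endothelial-like fragments at C1q were thus mostly at the C1qb start and this end of C1qa. At the C1qa tile the log2 ratio of Kupffer-like over endothelial-like cells was 1.95 (1.17 to 2.99) in library 1 and 1.23 (0.4 to 2.26) in library 2. At the C1qb start it was 3.0 (2.17 to 4.14) and 3.1 (2.26 to 4.25). The intervals of these tiles overlap in library 1 and meet in library 2, and the difference was not tested. Counted gene by gene, with windows of 2 kb flanks that overlap, the ratio was 2.56 for C1qa, 3.67 for C1qb and 3.48 for C1qc in library 1, and 2.1, 3.07 and 4.23 in library 2.

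**Figure D3:**
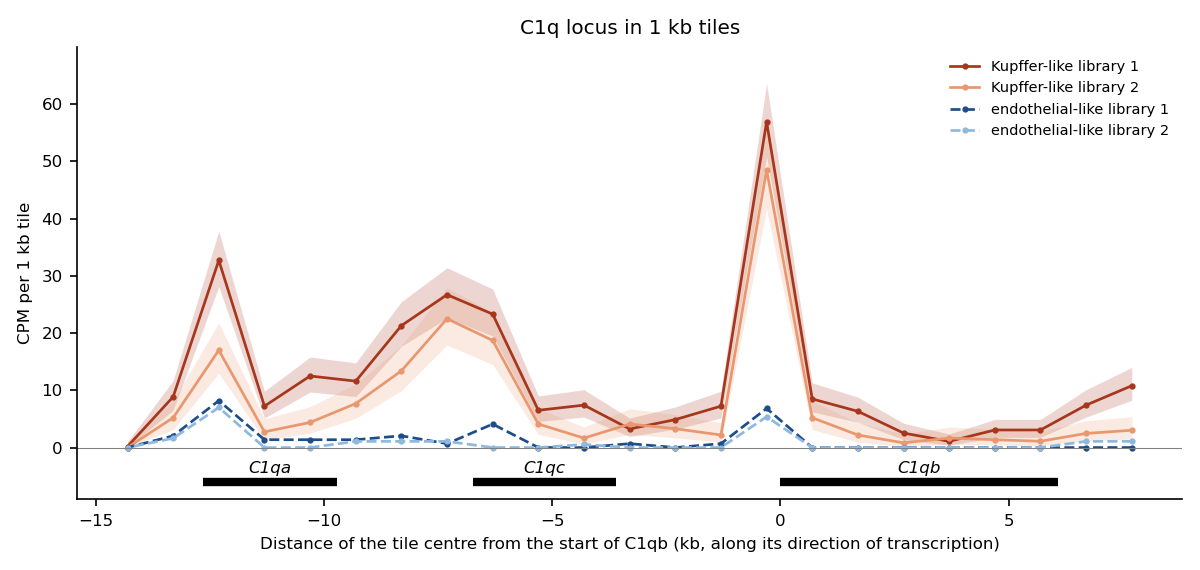
Fragments per 1 kb tile along the C1q locus (CPM) against the distance of the tile centre from the start of C1qb in kb, with Kupffer-like cells as solid and endothelial-like cells as dashed lines for each library. Shading is the exact 95% Poisson interval of Kupffer-like cells, and black bars mark the genes. The intervals of the libraries overlapped at the starts of C1qb (56.9 and 48.5 CPM) and C1qc and not at the fuller end of C1qa (32.7 and 17.0 CPM), which may be the start of that gene.

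Between the libraries, Kupffer-like cells had a C1q ratio of 0.44 (0.29 to 0.59) on the log2 scale, library 1 over library 2, after removal of the median gene's ratio of 0.22. It was not even along the locus. The 3 tiles at the starts of C1qb and C1qc had 592 fragments in library 1 and 327 in library 2, a ratio of 0.03 (-0.16 to 0.23), while the other 20 tiles had 921 and 305, a ratio of 0.77 (0.58 to 0.96). This split was made after the values of the tiles were seen, and it places both ends of C1qa among the other tiles. A fragment that crosses a tile edge counts in each tile it touches. In all, the tiles held 1513 fragments in library 1 and 632 in library 2, against 1302 and 543 in the window. The intervals of summed tiles do not allow for such repeats and are too narrow. With the fuller end of C1qa added to the 3 tiles the ratios were 0.17 (-0.01 to 0.35) for those 4 tiles and 0.78 (0.57 to 1.0) for the remaining 19. With pile-ups masked the values of the first split were -0.05 (-0.25 to 0.15) and 0.68 (0.5 to 0.88), and with cells of at least 50% of fragments in peaks they were -0.1 (-0.31 to 0.12) and 0.49 (0.29 to 0.7). The ratio of the whole locus became 0.24 with those cells and 0.17 (-0.01 to 0.35) with 1 kb on each side of the gene starts, where the fuller end stood in for the start of C1qa. Outside the starts of C1qb and C1qc, the tiles with at least 20 fragments ran from 0.31 (-0.68 to 1.46) at chr4:136888001-136889000 to 1.85 (0.71 to 3.48) at chr4:136890001-136891000 inside C1qc, where 41 fragments of library 1 stood against 6 of library 2. The tile of the fuller end of C1qa had 0.71 (0.3 to 1.16), the intervals of several other tiles included 0, and 2 sparse tiles were below 0 (-0.57 and -0.82). In endothelial-like cells the ratio of the locus was 0.28 (-0.41 to 0.98), an interval that holds both 0 and the value of Kupffer-like cells, and the difference between the classes was not tested.

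Taking the 7 loci side by side, 5 were at least 2-fold higher in Kupffer-like than in endothelial-like cells of library 1, where 12.5% of the 15001 genes with at least 50 fragments were that much higher. In library 2, 5 of the 6 loci with enough fragments were, against 11.1% of 14297 genes. These 5 were the C1q locus, Vsig4, C6, Cfp and C3ar1 in both libraries, C5ar1 was below 2-fold in both, and C9 was below it in library 1 and had too few fragments in library 2. The median log2 ratio of the loci was 2.95 in library 1 and 2.64 in library 2, against 0 for all genes by construction. Between the libraries, in Kupffer-like cells, 1 of the 7 loci (C9) was at least 2-fold higher in library 1 and none lower, while 2.96% of 15625 genes were higher and 8.17% lower. In endothelial-like cells only the C1q locus and C5ar1 had 50 fragments over both libraries, and neither passed 2-fold (2.7% of 12467 genes were higher and 7.28% lower).

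**Figure D4:**
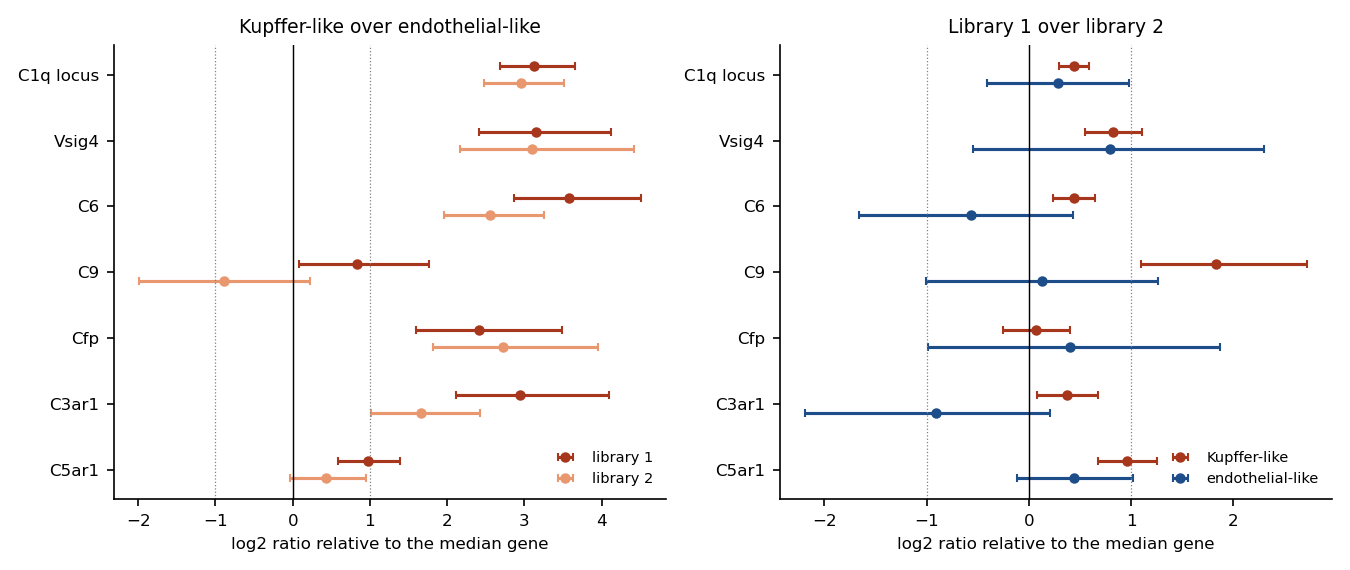
Log2 ratios of the 7 loci relative to the median gene, Kupffer-like over endothelial-like cells in each library (left) and library 1 over library 2 in each class (right). Points are ratios with 0.5 added to both counts, bars are exact conditional 95% intervals for counting error, dotted lines mark 2-fold. On the left 5 loci lie beyond 2-fold in both libraries, on the right only C9 in Kupffer-like cells does (1.83).

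Vsig4 (chrX:96247201-96293438), the receptor for C3 fragments, followed the C1q locus most closely. Its window had 449 fragments in Kupffer-like and 13 in endothelial-like cells of library 1 (81.1 against 8.88 CPM) and 143 and 8 in library 2 (39.2 against 4.31 CPM). Kupffer-like over endothelial-like cells gave log2 ratios of 3.15 (2.41 to 4.12) and 3.1 (2.17 to 4.42) in libraries 1 and 2. A Vsig4 fragment was found in 70.1% and 37.4% of Kupffer-like cells of libraries 1 and 2, against 7.0% and 5.36% of endothelial-like cells, and after thinning in 35.8% and 13.7% against 3.19% and 1.89%. The fullest tile in library 1 held the gene start (63 and 6 fragments in Kupffer-like and endothelial-like cells), and the fullest in library 2 lay inside the gene, centred 36937 bases past the start (25 and 2 fragments). Between libraries the window had a ratio of 0.82 (0.55 to 1.11) in Kupffer-like cells, the start tile 1.21 (0.42 to 2.17) and the inner tile 0.3 (-0.39 to 1.06). A further tile, centred 2937 bases past the start, had 44 fragments in library 1 and 5 in library 2, a ratio of 2.19 (0.98 to 4.01), with none in endothelial-like cells. Without marked doublets, Kupffer-like over endothelial-like cells gave 4.69 and 3.68, with 3 endothelial fragments left in each library. Vsig4 and Cfp lie on the X chromosome, of which a male nucleus has a single copy.

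Cfp (chrX:20925454-20931555), which encodes properdin, had 229 fragments in Kupffer-like and 11 in endothelial-like cells of library 1 (41.4 against 7.51 CPM) and 123 and 9 in library 2 (33.7 against 4.85 CPM). The log2 ratios were 2.41 (1.6 to 3.49) and 2.72 (1.82 to 3.96), and 3.3 and 3.71 without marked doublets, with 4 and 2 endothelial fragments left. Properdin was the locus most alike between libraries in Kupffer-like cells, with a ratio of 0.07 (-0.25 to 0.4) and a start tile of 0.16 (-0.53 to 0.92), though the ratio was -0.25 with 1 kb on each side of the start and 0.84 after thinning. Its fullest tile was not the start but the one past the far end of the gene, with 71 and 3 fragments in library 1 and 42 and 0 in library 2. The window overlaps the gene Elk1, and fragments shared by both cannot be assigned to one. Cluster 5 reached 31.2 CPM (19.3 to 47.7) and 24.4 CPM (17.4 to 33.2) in libraries 1 and 2, so the intervals for Cfp in this unnamed cluster and in Kupffer-like cells overlap.

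C6 (chr15:4727067-4804045), a terminal component, had 650 fragments in Kupffer-like and 14 in endothelial-like cells of library 1 (117 against 9.56 CPM) and 270 and 23 in library 2 (74.1 against 12.4 CPM). Log2 ratios were 3.58 (2.87 to 4.51) and 2.55 (1.96 to 3.26). In library 2, 1 Kupffer-like cell gave 41 of the 270 fragments, 36 of the 270 lay in pile-ups, and masking them gave a ratio of 2.36. More than the start, a single inner tile carried the signal: chr15:4734001-4735000, centred 7291 bases past the start, had 234 and 3 fragments in library 1 and 77 and 3 in library 2. This tile held 32.3% of all tile fragments of C6 in Kupffer-like cells of library 1 and 24.4% in library 2. The start tile had 93 and 1 in library 1 and 54 and 1 in library 2. Between libraries, Kupffer-like cells had a ratio of 0.77 (0.4 to 1.17) in the inner tile and -0.04 (-0.54 to 0.47) in the start tile, and 0.44 (0.24 to 0.65) over the window. The gene table used here gives no exons, so a tile is placed only as inside the gene.

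Unlike C1q, C6 was also open in stellate or fibroblast-like cells, whose 64 fragments of library 1 gave 85.8 CPM (66.1 to 110) and 37 fragments of library 2 gave 77.7 CPM (54.7 to 107). There the inner tile had 24 fragments in library 1 and 6 in library 2, and the start tile 22 and 4. Hepatocyte-like cells of library 1 had 47.1 CPM (28.7 to 72.7), from 20 fragments of 24 cells. The intervals of stellate or fibroblast-like cells and of Kupffer-like cells overlap in both libraries (109 to 127 CPM in Kupffer-like cells of library 1), so C6 did not set these classes apart in the way C1q did.

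C9 (chr15:6445346-6498825), the pore-forming last component, was nearly closed in macrophages. It had 103 fragments in Kupffer-like and 15 in endothelial-like cells of library 1 (18.6 against 10.2 CPM) and 16 and 15 in library 2 (4.39 against 8.08 CPM). Over the 300 bases at its start, Kupffer-like cells had 0 fragments in library 1 and 1 in library 2. The 103 fragments were spread thinly: 1 tile of 58 reached 20 fragments, the one past the far end of the gene (26 in library 1, 4 in library 2). Among the named classes C9 was highest in the 24 hepatocyte-like cells of library 1, at 37.6 CPM (21.5 to 61.1), and 8 of those 16 fragments lay in the start tile. The log2 ratio of Kupffer-like over endothelial-like cells was 0.83 (0.08 to 1.76) in library 1 and -0.89 (-1.99 to 0.23) in library 2, where the value of library 2 rests on fewer than 50 fragments. Library 1 over library 2 gave 1.83 (1.1 to 2.72) in Kupffer-like cells, and 37.5% of the 16 fragments of library 2 came from 1 cell. Thinned shares of Kupffer-like cells with a C9 fragment were 5.96% and 2.11%, against 5.32% and 3.77% of endothelial-like cells, with overlapping intervals.

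The receptors C3ar1 and C5ar1 differed in how they set the classes apart. C3ar1 (chr6:122847140-122856157) had 305 fragments in Kupffer-like and 10 in endothelial-like cells of library 1 (55.1 against 6.83 CPM) and 133 and 21 in library 2 (36.5 against 11.3 CPM), with log2 ratios of 2.95 (2.12 to 4.1) and 1.66 (1.02 to 2.42). With 1 kb on each side of the start these were 2.05 and 0.85, the second below 2-fold. The start tile held most of the endothelial signal, with 109 and 8 fragments in library 1 and 61 and 19 in library 2, while the tile inside the gene at chr6:122854001-122855000 had 70 and 0 in library 1 and 35 and 1 in library 2. Foxj2 overlaps the C3ar1 window. Between libraries C3ar1 resembled C1q in Kupffer-like cells, with 0.37 (0.08 to 0.68) over the window, 0.01 (-0.45 to 0.49) at the start tile and 0.78 (0.08 to 1.59) in the tile centred 3656 bases past the start.

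C5ar1 (chr7:16246743-16259540) had 451 fragments in Kupffer-like and 61 in endothelial-like cells of library 1 (81.5 against 41.7 CPM) and 131 and 49 in library 2 (35.9 against 26.4 CPM). The log2 ratios of 0.97 (0.59 to 1.39) and 0.43 (-0.04 to 0.95) were the lowest of the loci but C9. They passed 2-fold without marked doublets (1.08 and 1.21) and were 0.42 and -0.52 after thinning to 5000 fragments per cell. The fullest tile of endothelial-like cells, inside the gene at chr7:16254001-16255000, held 42.6% and 46.6% of the endothelial tile fragments of libraries 1 and 2, with 134 and 29 fragments in library 1 (24.2 against 19.8 CPM) and 32 and 27 in library 2 (8.78 against 14.5 CPM). Elsewhere in the gene the classes stood apart: the tile just past the start, chr7:16258001-16259000, had 109 and 2 fragments in library 1 and 43 and 2 in library 2. With 1 kb on each side of the start the log2 ratio was 2.43 in library 1 and 0.78 in library 2. Between libraries, Kupffer-like cells had a ratio of 0.96 (0.68 to 1.25), and here the start tile had one of the larger values, 1.62 (0.86 to 2.56), from 84 fragments in library 1 and 15 in library 2. Cluster 5 had 89.2 CPM (68.1 to 115) from library 1, against 81.5 CPM (74.2 to 89.4) in Kupffer-like cells, with overlapping intervals. From library 2 it had 52.4 CPM (41.9 to 64.8), against 35.9 CPM (30 to 42.6), with intervals that overlap narrowly. The tile at chr7:16244001-16245000, with 89 and 5 fragments in library 1 and 45 and 9 in library 2, overlaps the neighbouring receptor gene C5ar2. The C5ar1 window starts at base 16244743, so much of this tile lies outside it. Its fragments are all part of the tile fragments behind the percentages above.

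**Figure D5:**
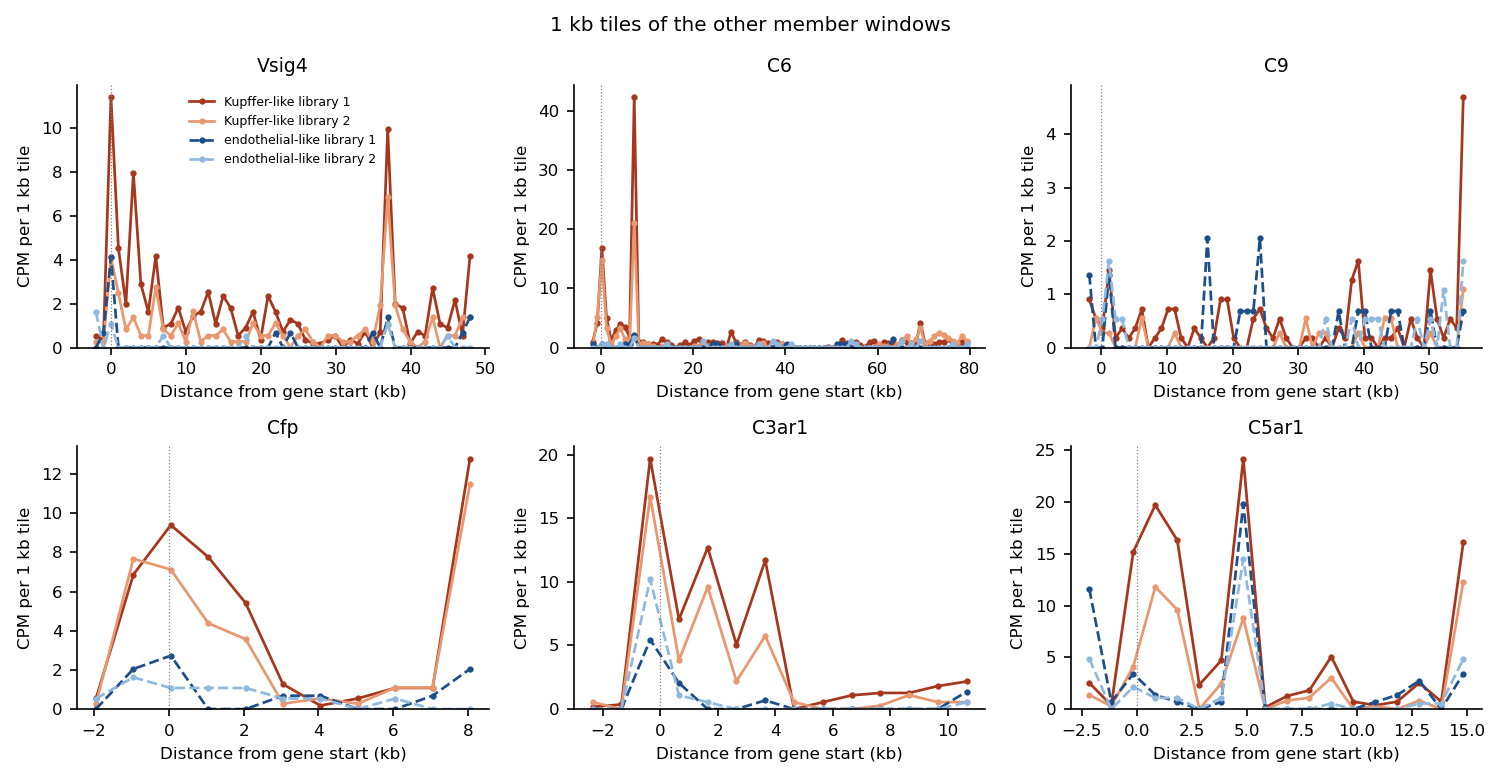
Fragments per 1 kb tile (CPM) of the other 6 windows against the distance of the tile centre from the gene start in kb, along the gene, with Kupffer-like cells as solid and endothelial-like cells as dashed lines for each library. Dotted lines mark the start. C6 peaked 7291 bases inside the gene (42.3 and 21.1 CPM in Kupffer-like cells of libraries 1 and 2), and at C5ar1 the tile 4837 bases past the start was open in endothelial-like cells (19.8 and 14.5 CPM) as well.

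Gene starts had values from above to below 0 in the comparison of libraries. Within 1 kb of the start, library 1 over library 2 in Kupffer-like cells was 1.43 (0.75 to 2.23) for C5ar1 and 0.96 (0.27 to 1.75) for Vsig4. It was 0.94 (-0.78 to 3.57) for C9, 0.17 (-0.01 to 0.35) for the C1q locus, 0.02 (-0.42 to 0.48) for C3ar1, -0.14 (-0.61 to 0.34) for C6 and -0.25 (-0.75 to 0.27) for Cfp. The interval of the C1q locus overlaps those of Vsig4, C9, C3ar1, C6 and Cfp, so an order among these starts is not given. Of 10474 genes counted in this way, 5.2% were at least 2-fold higher in library 1.

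Of 34 other complement genes, 23 had at least 50 fragments in Kupffer-like and endothelial-like cells of library 1. Of these, 9 were at least 2-fold higher in Kupffer-like cells (12.5% of all genes were), 5 lower (9.71% of all genes) and 9 neither. In library 2, 6 of 22 were higher (11.1% of all genes), 9 lower (10.2% of all genes) and 7 neither. The median log2 ratio of these other complement genes was 0.44 in library 1 and 0.08 in library 2. With pile-ups masked, Masp2 (-0.33), Cd46 (-0.42), Cr1l (-0.26) and Cr2 (0.2) were no longer 2-fold lower in library 2. Colec11 (0.46) was no longer 2-fold higher there, while Fcna moved from 0.65 to 1.15. Higher in both libraries were C2, a protease of the classical pathway (1.46 and 1.76 in libraries 1 and 2), and the integrin genes of complement receptors 3 and 4, Itgam (2.34 and 2.56), Itgax (2.34 and 1.36) and Itgb2 (1.94 and 2.03). Lower in both, and so more open in endothelial-like cells, were Masp1, a lectin pathway protease (-2.54 and -2.33), Cfi, the protease that inactivates C3b (-2.26 and -1.14), Cd59a, an inhibitor of the membrane attack complex (-2.17 and -2.25), and Cd93, a glycoprotein of endothelial and myeloid cells once described as a C1q receptor (-2.59 and -2.33). Masp1 had 242 fragments in Kupffer-like and 375 in endothelial-like cells of library 1 (43.7 against 256 CPM), and 100 and 256 in library 2 (27.4 against 138 CPM). Fragments of Cd59a may be shared with its near copy Cd59b.

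Between libraries, in Kupffer-like cells, 27 other complement genes had enough fragments, with a median of 0.12. Of these, 1 was at least 2-fold higher in library 1 (2.96% of all genes were), 2 were lower (8.17% of all genes) and 24 neither. Both counts are near the share over all genes. The 3 highest were C4b (1.06, a gene with the near copy C4a), Vtn, an inhibitor of the pore (0.81), and Itgam (0.77). The 3 lowest were Colec11, a collectin (-2.87), Hc, which encodes C5 (-1.05), and Cfi (-0.91). For Colec11, 1 cell gave 68.4% of the 76 fragments of library 2, 51 of the 76 lay in pile-ups, and masking these gave -1.37. With masking Hc had -0.64 and C4b 0.98.

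Across the 9 combinations of cluster and library with at least 25 cells, the log2(CPM + 1) of the C1q locus correlated with that of Vsig4 at r = 0.96, of C3ar1 at 0.87, of Cfp at 0.72, of C5ar1 at 0.56, of C6 at 0.54 and of C9 at 0.26. Among 16489 genes with at least 100 fragments, the 5 with the closest pattern to C1q were Prom1, a membrane glycoprotein (r = 0.986), Cd5l, a protein secreted by macrophages (0.969), Timd4, a receptor for phosphatidylserine (0.969), Map3k4, a stress kinase (0.954), and Gpt2, an alanine aminotransferase (0.949). The points share 2 libraries and their depth, Cd5l and Timd4 were among the markers that named the Kupffer-like clusters, and the values only describe these clusters.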

How the data were processed

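The 2 liver libraries share 1 deposited fragment table, which lists unique fragments with raw counts of their read pairs. A per-barcode table by the authors gives counts of fragments and the cell calls. Cell Ranger ATAC 1.2.0, R 3.6.1, Signac 0.2.4 and the build GRCm38.p5 are named in the submitters' processing notes. Gene coordinates came from RefSeq GRCm38.p6, a patch release with the same primary chromosomes. Each unique fragment was counted once. Called cells were kept with at least 1000 fragments in peaks, making up at least 15% of their total, and no more than 5% in blacklisted regions. Fragments in 5 kb bins, without the members and 50 kb around them, were weighted by TF-IDF, reduced to 30 components (scikit-learn 1.9.0; the first left out) and clustered with Leiden at resolution 0.5 (leidenalg 0.10.2). Clusters were named from 13 lists of 106 markers, none a member. Cells marked as doublets by an overlap rule (q 0.01) or simulated pairs (64 in library 1, 92 in library 2) were kept.

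Windows were gene bodies with 2 kb on each side, and tiles 1 kb. Levels are CPM with exact Poisson intervals; ratios, relative to the median gene with at least 50 fragments, have exact conditional binomial intervals. A gene was called past 2-fold. Tiles with at least 20 fragments in a class are described. The ratios and their intervals were tested on simulated Poisson counts, which hold no pile-ups, and window counts were checked against a direct count. The other steps were not tested in this way. The members and lists were chosen with earlier results of these data known. Named genes were all members, other complement genes past 2-fold the same way in both libraries, the 3 highest and 3 lowest between libraries, and the 5 most like C1q. C6 tiles of stellate or fibroblast-like cells, C9 tiles of hepatocyte-like cells and the levels of unnamed clusters were picked after values were seen. Alternatives changed the cell filter, clusters, doublets, windows, insertions, pile-ups, depth and scaling.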

Additional observations from a re-analysis of the deposited data

Results flagged for a closer look

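At 3 loci a comparison changed direction between libraries or classes. None of these differences was tested and each side is 1 library. C9 was higher in Kupffer-like than in endothelial-like cells of library 1 (log2 ratio 0.83) and lower in library 2 (-0.89), where the counts were 16 and 15 fragments. C6 was higher in library 1 than in library 2 in Kupffer-like cells (0.44) and lower in endothelial-like cells (-0.57), where the counts were 14 and 23 fragments. C3ar1 was likewise higher in library 1 in Kupffer-like cells (0.37) and lower in endothelial-like cells (-0.91), from 10 and 21 fragments. The intervals of the endothelial-like ratios, -1.66 to 0.43 for C6 and -2.19 to 0.21 for C3ar1, include 0.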

How the results depend on the processing

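Of 46 alternative values for the C1q locus, 40 stayed within the counting interval of the reported value, 6 moved beyond it and none with an interval clear of 0 changed sign. Kupffer-like over endothelial-like cells became 4.29 in library 1 without marked doublets and 3.52 in library 2 without flanks. Library 1 over library 2 in Kupffer-like cells became 0.17 with 1 kb on each side of the gene starts, 0.24 with cells of at least 50% of fragments in peaks and 0.68 with clusters made within each library, an alternative chosen after seeing the data, and in endothelial-like cells -0.44 without marked doublets. Of 276 values for the other loci 24 moved, among them C3ar1 in Kupffer-like over endothelial-like cells of library 2 at the start (0.85) and C6 between libraries (-0.14 at the start). The number of loci at least 2-fold higher in Kupffer-like cells of library 2 became 3 with start windows and 2 after thinning, when Vsig4 (2.78), Cfp (2.3) and C3ar1 (1.11) were past 2-fold but had fewer than 50 fragments. The number higher in library 1 became 2 after thinning or without a minimum of fragments, and 3 with clusters within each library or at 1.5-fold. After thinning, the 2 in Kupffer-like cells were Vsig4 (1.17) and C5ar1 (1.57), while C9 (1.72) had fewer than 50 fragments. With the member regions kept in the clustering, 2 Kupffer-like cells were left in library 2 and gave no value. There 307 cells of library 2 lay in an unnamed cluster whose highest score was 0.11, for the Kupffer list. The Kupffer-like class of library 2 thus held 195 cells in the main setting, 2 in this one and 338 with clusters made within each library. The 46 and 276 values leave out those that could not be computed. The cause of these shifts was not tested. No paired analysis was possible because there was 1 library per group. Depth limits the endothelial-like values, with fewer than 50 fragments over both libraries at 5 of the 7 loci, and the smaller classes had fewer fragments in total.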

Other observations

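At Leiden resolution 1 the Kupffer-like cells of library 1 formed 2 clusters. The first, of 200 cells with a median of 13992.5 fragments and 7 marked doublets, had a C1q level of 268 CPM (249 to 287). The second, of 91 cells with a median of 28167 fragments and 33 marked doublets, had 202 CPM (185 to 220).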
